A study of Homo sapiens with 1 sample.

Results

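The genes of the AP-1 transcription factor family were examined in a map of open chromatin of 786-O cells, an established line of human clear cell renal cell carcinoma that carried an empty lentiviral vector. The family comprised 10 of the 20033 protein-coding genes of the annotation. There were 4 FOS-like genes (FOS, FOSB, FOSL1 and FOSL2), 3 JUN-like genes (JUN, JUNB and JUND) and 3 other members with a basic leucine zipper (ATF3, BATF and BATF3). Every ATAC-seq peak with its summit inside a member gene, or within 100 kb of either end of the gene record, was taken, which gave 184 of the 88615 peaks on the 24 primary chromosomes of hg38. In ATAC-seq, the Tn5 transposase cuts open DNA, and a peak marks a place with more cuts than the genome-wide background. A total of 16 peaks were near both ATF3 and BATF3, which are neighbors. The cells are named as the sample label has them, although the names of the peaks carry a wild-type tag. There was 1 library without a replicate, the DPF3a-overexpressing cells of the study are not analysed here, and no p-value is given.

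AP-1 is a dimer held together by leucine zippers. JUN proteins pair with each other or with FOS proteins, whereas FOS proteins need a partner, and the dimers bind TGACTCA, the AP-1 site (TGAGTCA on the other strand). ATF proteins and their dimers with JUN prefer the longer TGACGTCA. FOS, FOSB, JUN and JUNB are immediate early genes, which growth factors, cytokines and stress switch on within minutes, in part through serum response factor at the CArG box. In epithelial cancers AP-1 is known for its role in migration and invasion, and AP-1 sites are common in distal enhancers.

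The value of a peak is the fold enrichment of its summit over the background. It rests on the pileup, the number of reads or fragments over the summit, for which exact Poisson 95% intervals are given in brackets. They cover counting error only. The background pileup was 0.941 and the median pileup of all peaks was 20. As a check of the cell type, promoter peaks were present at 4 renal markers, with folds of 47.9 at VIM, 31.9 at PAX8, 22.7 at PAX2 and 8.24 at KRT18, whereas CA9 had none. None of 2 leukocyte markers (PTPRC, CD3E), 2 endothelial markers (PECAM1, CDH5) and 1 hepatocyte marker (ALB) had a promoter peak. With promoters of 1 kb to both sides of a TSS, the fold was 113 at PAX8 and 43.3 at KRT18. The peak of VIM was at the transcription start site (TSS) of another transcript than the canonical one, the transcript that the annotation takes as representative.

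To ask whether the genes themselves were accessible, promoter peaks were counted first. The promoter of a gene was the 1 kb before and the 100 bp after a TSS of any of its transcripts. Promoter peaks were present at 9 of 10 members, all but BATF, whereas 61.4% of all protein-coding genes had such a peak. All 4 FOS-like and all 3 JUN-like genes had a promoter peak, and so did 2 of the 3 other members. The members with a peak had GC-rich promoters, with 62.6% to 77.2% G or C in the 500 bases upstream of the canonical TSS. Among all protein-coding genes within 2 percentage points of the GC content of each of them, between 71.7% and 77.2% had a promoter peak.

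Among the JUN-like genes, JUN stood highest. JUN, on chromosome 1 (58776845 to 58784048, minus strand), encodes the most widely studied AP-1 subunit and had a promoter fold of 91.7 (78.8 to 106), which was higher than 99.4% of promoter peaks of all genes and 99.6% of those on chromosome 1. Its peak was 4631 bp wide, wider than 99.8% of promoter peaks, with its highest point 146 bp upstream of the TSS, and it also held a TSS of the noncoding gene LINC01135. JUND on chromosome 19 (18279694 to 18281622), known as a broadly expressed and weakly inducible member, had a fold of 27.8 (21.0 to 36.2) with its summit 171 bp upstream. JUNB on chromosome 19 (12791486 to 12793315), known to restrain some JUN functions, had a fold of 21.6 (15.7 to 29.2) with its summit 50 bp upstream. The pileup of JUN was 3.34 times that of JUND (2.44 to 4.63) and 4.32 times that of JUNB (3.06 to 6.22), both beyond counting error. JUND and JUNB were not told apart, with a ratio of 1.29 (0.844 to 1.99).

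Among the FOS-like genes, FOSL2 stood highest. FOSL2 on chromosome 2 (28392448 to 28417317), which encodes the FOS-related antigen FRA-2, had a fold of 47.9 (38.7 to 58.7), higher than 89.5% of promoter peaks, and its summit was 32 bp upstream of the TSS. Another FOSL2 promoter peak, at the TSS of another transcript 1922 bp downstream, was weak, with a fold of 5.15. FOSL1 on chromosome 11 (65892049 to 65900573, minus strand), which encodes FRA-1, had a fold of 24.2 (17.9 to 32.1) at 131 bp upstream. FOS on chromosome 14 (75278826 to 75282230) had a fold of 20.1 (14.4 to 27.4) at 184 bp upstream. FOSB on chromosome 19 (45467995 to 45475179) had 2 promoter peaks. The weaker, 255 bp upstream of the canonical TSS, had a fold of 6.18 (3.34 to 10.7), and the stronger lay 2321 bp downstream of it at the TSS of another transcript, with a fold of 18.6 (13.1 to 25.6). The pileup of FOSL2 was 2.0 times that of FOSL1 (1.39 to 2.91) and 2.42 times that of FOS (1.64 to 3.63), whereas FOSL1 and FOS (ratio 1.21; 0.771 to 1.91) were not told apart.

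Among the other members, ATF3 stood highest. ATF3 on chromosome 1 (212565334 to 212620777), a stress-induced factor of the ATF/CREB group, had a fold of 68.0 (57.0 to 80.6), higher than 97.2% of promoter peaks, its summit lying 315 bp upstream of the canonical TSS, which lies inside the gene record. BATF3 on chromosome 1 (212686417 to 212699840, minus strand), known for dendritic cell development, had a fold of 10.8 (6.81 to 16.4), higher than 27.1% of promoter peaks, at 302 bp downstream of the canonical TSS, where only another transcript begins nearby. The ATF3 pileup was 6.55 times that of BATF3 (4.07 to 11.1). BATF on chromosome 14 (75522455 to 75546993), known for its part in lymphocyte differentiation, had no promoter peak. Around its canonical TSS, 80.8 kb separated the neighboring summits. The 500 bases upstream of it had 45% G or C, and 39.5% of the 1339 genes of like GC content had a promoter peak.

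**Figure D1:**
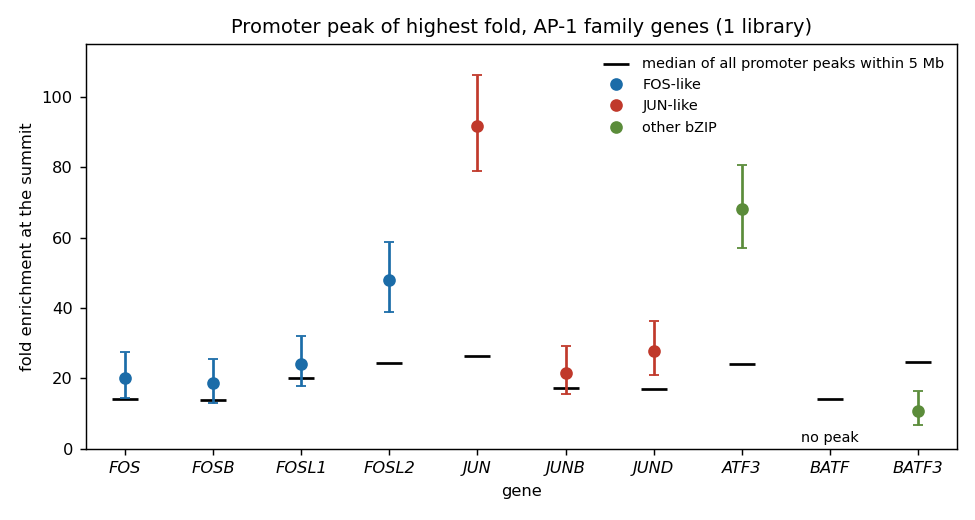
Fold enrichment at the summit (vertical axis, linear) of the promoter peak of highest fold for each of the 10 genes (horizontal axis). Points are colored by group, bars are exact Poisson 95% counting intervals of 1 library, and black dashes mark the median of all promoter peaks within 5 Mb. JUN (91.7), ATF3 (68.0) and FOSL2 (47.9) stand above the other members, BATF3 (10.8) lies under its local median of 24.7, and BATF has no peak.

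In order of fold, the promoters ran JUN, ATF3, FOSL2, JUND, FOSL1, JUNB, FOS, FOSB and BATF3. JUN exceeded ATF3 by a pileup ratio of 1.35 (1.07 to 1.71), ATF3 exceeded FOSL2 by 1.42 (1.08 to 1.88) and FOSL2 exceeded JUND by 1.74 (1.22 to 2.48). From JUND to FOSB no neighbors differed beyond counting error, and neither did the ends of this run (ratio 1.51; 0.970 to 2.39). The ratio of FOSB to BATF3 was 1.75 (0.983 to 3.20). These intervals are not adjusted for the number of pairs. The 3 groups therefore overlapped, with folds from 18.6 to 47.9 in FOS-like, 21.6 to 91.7 in JUN-like and 10.8 to 68.0 in the other members.

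Folds refer to 1 background for the whole genome, and the chromosomes differed, so each promoter was set beside the promoter peaks within 5 Mb of it. The local median ranged from 13.9 around FOSB to 26.3 around JUN. Relative to it, JUN was 3.49 times, ATF3 2.81 times, FOSL2 1.96 times and JUND 1.64 times as high. The ratio was 1.42 at FOS, 1.33 at FOSB, 1.25 at JUNB and 1.21 at FOSL1, and 0.438 at BATF3. The 3 highest members were the same by either measure. The copy number of these regions was not tested.

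The sequence of the promoters was then searched for the sites of the family and of its inducers, on both strands of the 500 bases upstream of the canonical TSS. TGACTCA was present in none of the 10 members, and in 6.07% of all protein-coding genes. TGACGTCA was present at FOSB and JUND (2.90% of all genes), TGACATCA, a variant of the AP-1 site known as an element through which JUN is thought to act on its own gene, at JUN (2.74%), and the CArG box at FOS and FOSB (2.38%). These matches are shown because each lies inside a promoter peak of its gene, which at FOSB is the weaker peak of fold 6.18. The sequences are hg38, written 5′ to 3′ on the strand of the gene, with the matches in capitals. The FOS stretch is chr14:75278474-75278563, FOSB is chr19:45467631-45467771, JUN is chr1:58784067-58784154 on the minus strand and JUND is chr19:18281775-18281862 on the minus strand.
FOS: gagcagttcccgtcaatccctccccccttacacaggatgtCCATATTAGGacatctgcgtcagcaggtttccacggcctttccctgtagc
FOSB: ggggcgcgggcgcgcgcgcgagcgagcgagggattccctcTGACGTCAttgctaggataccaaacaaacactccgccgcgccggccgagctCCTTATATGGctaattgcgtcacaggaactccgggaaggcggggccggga
JUN: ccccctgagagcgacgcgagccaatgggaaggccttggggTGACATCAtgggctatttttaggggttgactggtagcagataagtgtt
JUND: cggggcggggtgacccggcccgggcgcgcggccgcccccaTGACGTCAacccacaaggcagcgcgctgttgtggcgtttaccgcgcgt
The CArG box began 314 bp upstream of the TSS in FOS and 274 bp upstream in FOSB, and the FOSB TGACGTCA began at 325 bp, the JUND TGACGTCA at 200 bp and the JUN TGACATCA at 67 bp upstream. In FOSL2 a TGACTCA site began 4 bp downstream of the canonical TSS, in the first exon and outside that search, and 39 bp from the summit of the promoter peak. It reads as follows (chr2:28392851-28392879).
FOSL2: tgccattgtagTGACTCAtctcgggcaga
A match is a description of the sequence and does not show that a factor was bound.

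Distal sites were examined next. A distal peak had its summit outside the promoter of any gene, coding or noncoding. There were 127 distal peaks near the members, beside 11 at their own promoters and 46 at promoters of other genes. The number of distal peaks within 100 kb was 24 at FOSL2 and 24 at ATF3, 17 at BATF3, 16 at JUNB, 14 at FOSL1, 13 at JUN, 11 at FOSB, 8 at FOS, 8 at JUND and 5 at BATF. The median of all protein-coding genes was 7, with a 5th to 95th percentile of 0 to 21, so FOSL2 and ATF3 exceeded 96.6% of genes. Counted per Mb of window, since gene lengths differ, the values were 106.7 at FOSL2, 94.0 at ATF3 and 22.3 at BATF, beside a median of 29.1 for all genes. Of the 127 distal peaks, 67 were in introns, 45 intergenic and 15 in exons, and for 63 the nearest canonical TSS of a protein-coding gene was that of a member.

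**Figure D2:**
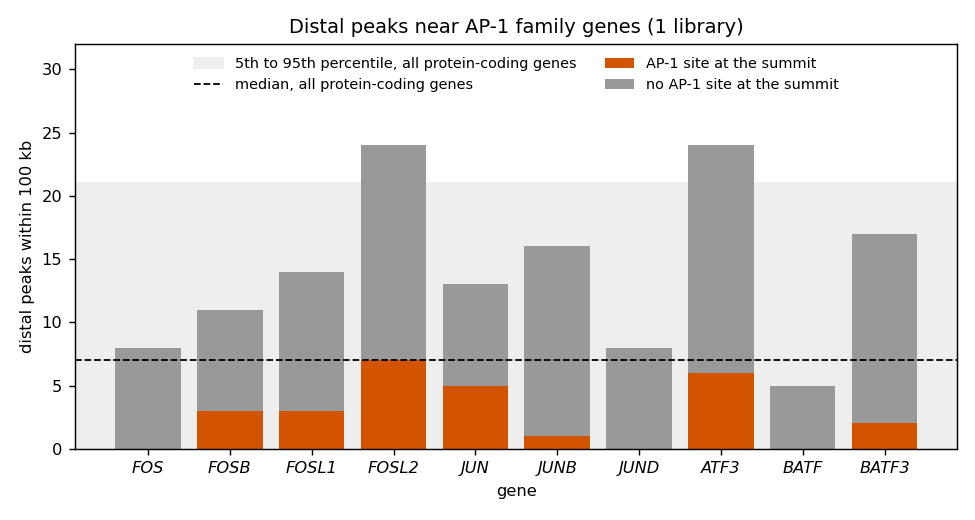
Number of distal peaks within 100 kb of each gene (vertical axis), split by whether an AP-1 site (TGACTCA) lies within 50 bp of the summit. The dashed line is the median of all protein-coding genes (7) and the gray band their 5th to 95th percentile (0 to 21). FOSL2 and ATF3, with 24 each, lie above the band.

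The density of distal peaks was not told apart between the 3 groups at this depth of counts. It was 67.5 per Mb of window in FOS-like (51.2 to 87.5), 60.6 in JUN-like (42.6 to 83.5) and 66.3 in the other members (48.6 to 88.5), with ratios of 1.12 for FOS-like to JUN-like (0.725 to 1.74), 1.02 for FOS-like to the others (0.678 to 1.54) and 0.913 for JUN-like to the others (0.576 to 1.44). Peaks of a locus are not independent, so these intervals are too narrow. Peaks in the windows of both ATF3 and BATF3 were counted for each of these genes. With such peaks given to the nearer gene only, the density of the other members was 59.0 per Mb (40.6 to 82.9). The ratio to it was then 1.14 for FOS-like (0.733 to 1.81) and 1.03 for JUN-like (0.624 to 1.69). The spread within each group was larger than that between them, from 39.3 at FOS to 106.7 at FOSL2, from 39.6 at JUND to 79.3 at JUNB, and from 22.3 at BATF to 94.0 at ATF3. With all summits up to 2.5 kb from a TSS taken as promoter, the density was 52.1 per Mb in FOS-like, 29.5 in JUN-like and 47.6 in the other members, and the ratio of FOS-like to JUN-like was 1.77 (1.002 to 3.25). With windows of 50 kb the densities were 99.1, 80.4 and 63.5 per Mb.

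The distal peaks of 9 of 10 members formed at least 1 cluster, defined as 3 or more distal summits with neighbors at most 10 kb apart, and 47.8% of protein-coding genes had a cluster in their window. BATF was again the exception. Besides BATF, JUN had no cluster with promoters of 1 kb to both sides, and JUN and JUNB had none with 2.5 kb. JUN and JUND had none with gaps of at most 5 kb. FOS and FOSB had none with a score above 100, and BATF3 had none with windows of 50 kb. The count was 5 when a cluster needed 5 summits, and these were FOSL1, FOSL2, JUNB, ATF3 and BATF3. With a score above 200, which keeps stronger peaks, it was 4 (FOSL1, FOSL2, JUND and ATF3). There were 14 different clusters, which held 68 of the 127 distal peaks. FOSL2 had 4 of them. The largest held 10 summits across 32.8 kb, between 5.60 kb upstream and 27.2 kb downstream of the TSS, with folds from 5.15 to 80.9, and another held 5 summits across 10.5 kb, with a median fold of 29.4. FOSL1 had 8 distal summits within 21.6 kb around its promoter, with folds from 5.15 to 36.6. JUNB had 6 within 16.0 kb, all with folds of 7.73 to 24.7. At ATF3, 6 distal summits within 28.1 kb (chromosome 1, 212470219 to 212498339) had a median fold of 36.8, the highest among the 14 clusters, and this cluster lay 110.4 to 138.5 kb upstream of the canonical TSS, nearer to that of NENF. Another 7 summits, with a median of 9.79, lay 2.12 to 28.1 kb downstream of the canonical TSS of ATF3, some of them inside the gene. They were in the windows of both ATF3 and BATF3 and formed the only cluster of BATF3, so this cluster is counted for both genes. The FOS cluster held 4 weak summits with folds from 6.18 to 8.76.

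**Figure D3:**
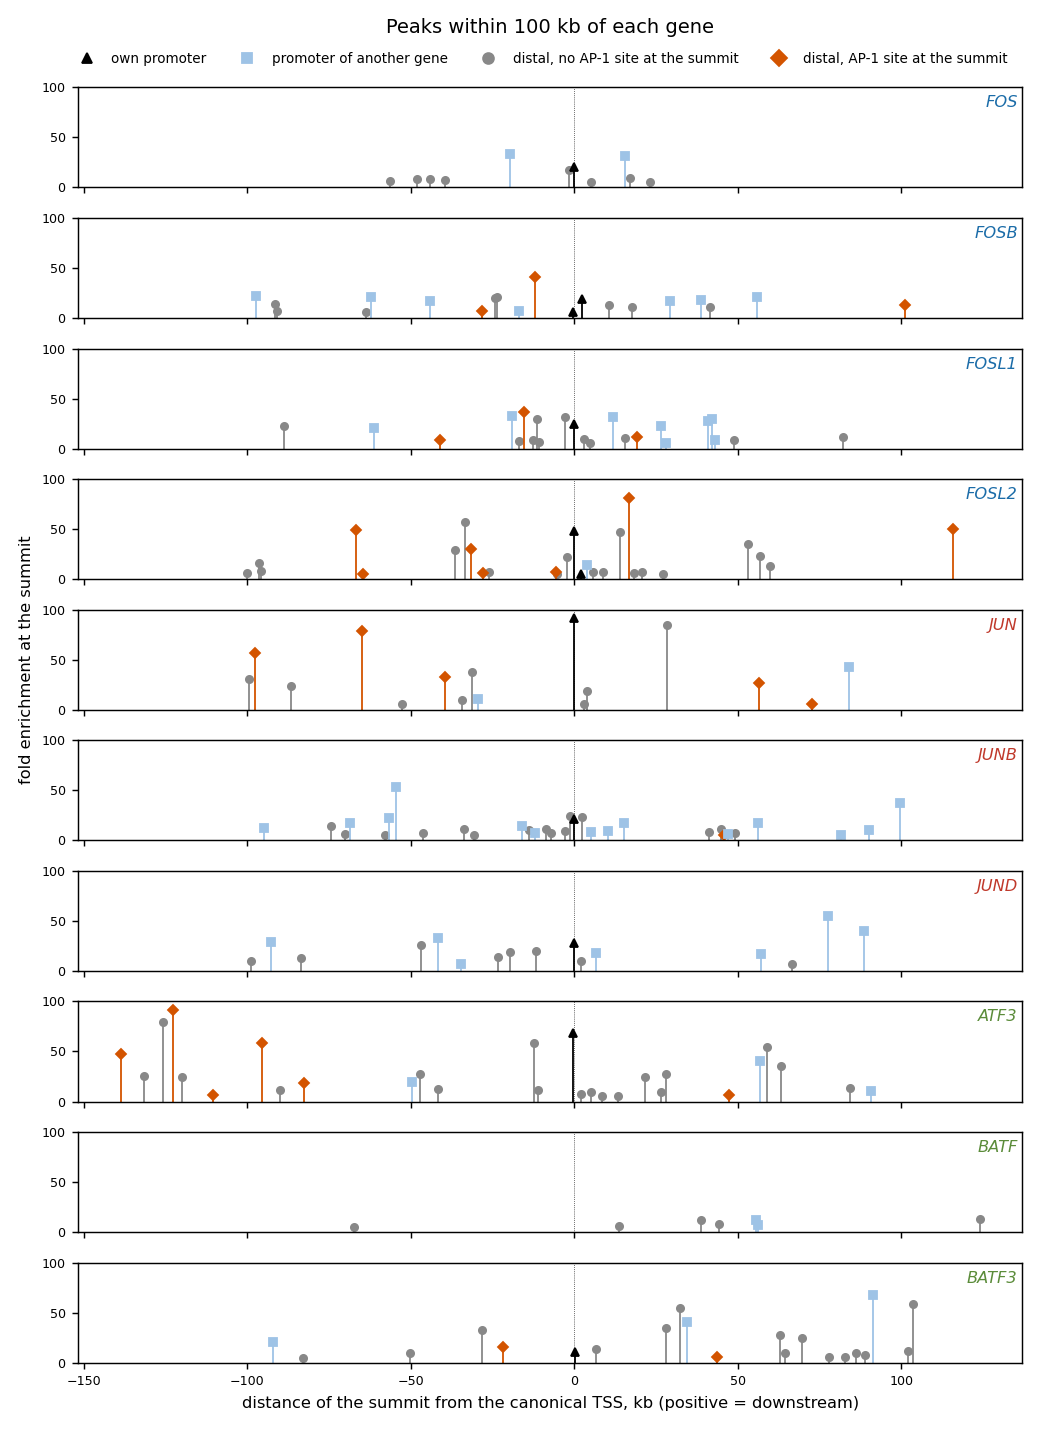
Fold enrichment (vertical axis) of each peak against the distance of its summit from the canonical TSS in kb (horizontal axis, positive is downstream), with a panel for each gene and the marker showing the class of the peak. Strong distal peaks with an AP-1 site stand in the windows of FOSL2 (80.9), JUN (78.3) and ATF3 (91.7), that of ATF3 being nearer to the TSS of NENF. The distal peaks of FOS (at most 17.5) and BATF (at most 13.4) are low.

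The strongest distal peak was set beside the promoter of the same gene. As it was the highest of 8 to 24 distal peaks, the ratio of pileups is biased upward, and it is given as a description with no interval. It was above 1 at FOSB, FOSL1, FOSL2, JUNB, ATF3 and BATF3. FOSL2 had an intronic peak of fold 80.9 at 16.6 kb downstream of the TSS, with a pileup 1.70 times that of its promoter. FOSB had a peak of fold 41.2 at 12.1 kb upstream, inside an intron of ERCC1, with a ratio of 2.26. The ATF3 ratio was 1.35, from a peak nearer to the TSS of NENF. The FOSL1 ratio was 1.52, from a peak nearer to the TSS of C11orf68. The ratio of 5.60 at BATF3 came from a peak in an intron of ATF3. At JUN, a peak of fold 84.5 at 28.4 kb downstream had a ratio of 0.921. The ratios were 1.15 at JUNB, 0.925 at JUND and 0.868 at FOS.

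To see whether the family's own binding site marked these distal peaks, TGACTCA was searched within 50 bp of each summit. It was present at 26 of 127 distal peaks, or 20.5% (exact 95% interval, 13.8 to 28.5), and at 18.0% of all distal peaks of the genome, so the share near the family was close to the background. In windows 1 kb to either side that lay in no peak, the site was present in 2 of 214 (0.935%; 0.113 to 3.34), and in 1.33% of such windows beside all distal peaks. At least 1 such peak was found at 7 of 10 members, and at 63.9% of protein-coding genes. The number was 7 at FOSL2, 6 at ATF3, 5 at JUN, 3 at FOSB, 3 at FOSL1, 2 at BATF3 and 1 at JUNB, with 1 of them shared by ATF3 and BATF3. FOS, JUND and BATF had none. This depended on the search: within 100 bp of the summit FOS had 1 and JUND 2, in the whole peak FOS had 1 and JUND 4, and with TGANTCA FOS had 2 and BATF 1, so that 9 members had such a peak under each. With a score above 100, JUNB had none and 6 members remained. FOSL2 exceeded 98.8% of protein-coding genes, ATF3 97.6% and JUN 95.05%. The share was 22.8% in FOS-like (12.7 to 35.8), 16.2% in JUN-like (6.19 to 32.01) and 21.2% in the other members (8.98 to 38.9), with intervals that overlapped. The middle of the site lay 6 to 44 bp from the summit, with a median of 24 bp, compared with 22 bp in all distal peaks. For 12 of the 26 peaks the nearest canonical TSS of a protein-coding gene was that of a member, compared with 63 of all 127.

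The strongest of these distal peaks of the 3 members with most of them are shown with 50 bases to each side of the summit and the site in capitals. FOSL2 is chr2:28409426-28409526 in its own intron. ATF3 is chr1:212486054-212486154 in intergenic sequence, nearer to the TSS of NENF than to that of ATF3. JUN is chr1:58848919-58849019 on the minus strand, in an intron of LINC01135.
FOSL2: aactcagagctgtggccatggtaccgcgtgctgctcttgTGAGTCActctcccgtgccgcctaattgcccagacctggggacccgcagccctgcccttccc
ATF3: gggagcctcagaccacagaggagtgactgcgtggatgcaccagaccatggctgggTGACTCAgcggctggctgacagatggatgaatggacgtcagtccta
JUN: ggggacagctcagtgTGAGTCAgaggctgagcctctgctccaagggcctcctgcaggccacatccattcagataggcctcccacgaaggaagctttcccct
Their folds were 80.9 at FOSL2, 91.7 at ATF3 and 78.3 at JUN. The strongest at FOSB (41.2) was the peak in ERCC1 named above. That of FOSL1 (36.6) lay 15.5 kb upstream of the FOSL1 TSS, nearer to the TSS of C11orf68. That of BATF3 (15.5) lay 21.9 kb upstream, and that of JUNB had a fold of 5.15, the lowest of the list.

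Near the family, distal peaks with the site had a median fold of 22.7 (interquartile range 6.83 to 48.7, n = 26), compared with 10.8 (7.21 to 22.2) in the other distal peaks. Over all distal peaks the medians were 11.3 with the site and 9.28 without it. The quartiles overlapped in both comparisons. Other sites were seen at few of the 127 peaks. GGGCGGG, the GC box of SP/KLF factors, was present at 8.66% (1.5% of all distal peaks). Several of these peaks were in the JUNB window, including summits 1187 bp upstream and 2315 bp downstream of its TSS. Another was 1909 bp downstream of the TSS of JUND. GGAATG, the core of the TEAD site, was present at 6.30% (10.3%), TGTGGTT, the RUNX core, at 3.15% (5.97%), and the CArG box and TGACATCA at 1 peak each. TGACGTCA and CCGGAAGT, an ETS site, were found at none (0.136% and 0.155% of all distal peaks).

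**Figure D4:**
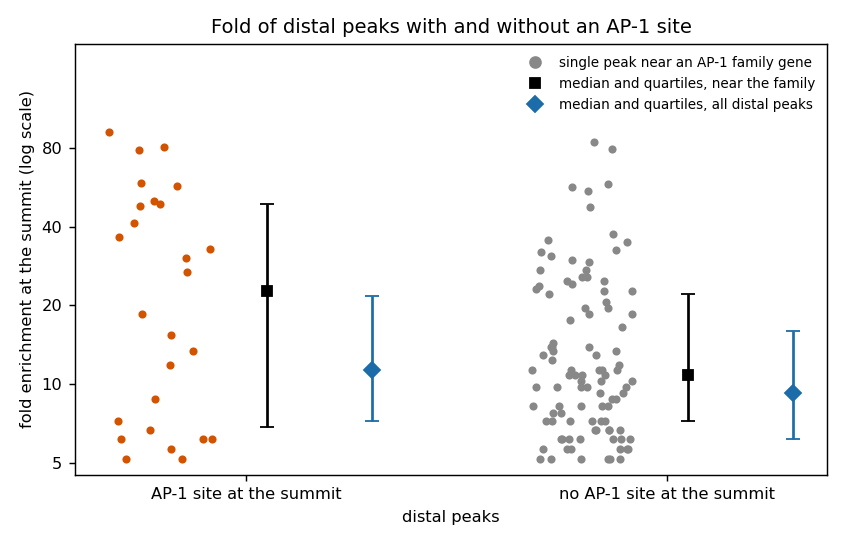
Fold enrichment (vertical axis, log scale) of the 26 distal peaks near the family with TGACTCA (the AP-1 site) within 50 bp of the summit and of those without it. Black squares are medians with quartiles of these peaks and blue diamonds those of all distal peaks. The medians are 22.7 and 10.8 near the family, and 11.3 and 9.28 over all distal peaks.

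FOS and BATF lie on the same stretch of chromosome 14, with JDP2, which encodes a repressor that dimerizes with JUN, between them. Beside the promoter peak of FOS, a distal peak 1.63 kb upstream had a fold of 17.5 (pileup of 33). The stronger peaks in the FOS window were at promoters of noncoding genes, with folds of 33.0 at 19.7 kb upstream and 30.9 at 15.4 kb downstream, the latter at LINC01220. JDP2 had no promoter peak, with 5311 bp between a TSS and the nearest summit. The only distal peak in the BATF gene, in an intron 13.6 kb downstream of the TSS, had a fold of 6.18, and that of highest fold in its window, 13.4, was 123.9 kb downstream in an intron of FLVCR2 and TTLL5.

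Other genes of the pathway were read in the same way, beside the 61.4% of all protein-coding genes with a promoter peak. Of 10 genes for zipper partners and related factors, 9 had a promoter peak, with folds from 6.18 at BATF2 to 90.2 at ATF2 (77.3 to 105), which pairs with JUN, and JDP2 was without. Of 13 kinase and factor genes upstream of AP-1, 13 had a promoter peak, from 9.28 at MAPK3, which encodes the kinase ERK1, to 57.2 at MAPK10, a JUN kinase gene whose peak was at a TSS of another transcript. SRF, the factor of the CArG box, had a fold of 35.0 (27.3 to 44.4). Of 14 target genes, 11 had a promoter peak, with the lowest fold, 5.67, at MMP1 (2.99 to 9.99), and MMP3, DUSP1 and HMGA1 had none. The MMP1 peak was lost with the canonical transcript only, and HMGA1 had a peak of fold 6.70 with promoters of 2.5 kb to both sides. The nearest summit was 7924 bp from a TSS at MMP3, 2653 bp at DUSP1, a phosphatase gene that limits MAP kinase signaling, and 2441 bp at HMGA1. A distal peak with TGACTCA was present within 100 kb of 13 of 14 target genes, with a highest number of 6 at CD44, and of 7 of 10 partner and 8 of 13 upstream genes, beside the 63.9% of all genes. TIMP1 was the target gene without such a peak. MMP1, MMP3, MMP10 and MMP13 are all on chromosome 11, and peaks that their windows may share were not set apart. The 14 target genes may therefore not count as separate loci.

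FOSL2, the member with most site-bearing distal peaks, was compared with other protein-coding genes by the percentile ranks of promoter fold, number of distal peaks and number of distal peaks with the site in this 1 library. Outside the windows of the family, the most alike were NLGN1 (promoter fold 46.4, 23 distal peaks, 6 with the site), SLC2A1 (48.4, 27 and 6) and THADA (45.3, 26 and 7), at distances of 1.39, 1.52 and 1.79 percentile points.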

How the data were processed

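ATAC-seq was analysed in 1 library of 786-O cells, labelled empty vector; the peak names in the deposited list carry a wild-type tag, and the label was used. According to the methods of the study and the submitters' processing notes, the authors used fastp for trimming and Bowtie2 2.3.4.3 for alignment to hg38, took out duplicates, poorly mapped and mitochondrial reads, and called peaks with MACS2 2.2.6 against a genome-wide background; whether cuts were shifted for Tn5 is not given in the sources used here. In the deposited list, the ratio is the fold of the summit pileup plus 1 over the background plus 1. The deposited −log10 p-values and q-values and the deposited score (lowest 52) follow from the same pileup, which was recovered to within 1.83e-05 of a whole number. The total number of reads is unknown.

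The reference was hg38 with GENCODE release 44, and 88676 of 88676 peaks lay within its sequences. Motif searches covered both strands. Shares carry exact Clopper-Pearson intervals, and ratios of pileups exact conditional binomial intervals. Percentiles are shares of genes or peaks with a lower value. With 1 library no group comparison was tested. The members, lists, motifs and settings were chosen with earlier results of these data known. Every member was named with its promoter peak of highest fold, strongest distal peaks and clusters, and of each pathway list the extremes and the genes without a promoter peak; SRF, CD44, TIMP1 and the FOS window were named after their values were seen, and some genes of the marker and target lists are not reported here. Alternatives changed the score minimum, promoter, window, motif and cluster definitions. Python 3.11.15, numpy 2.4.6, pandas 2.3.3, scipy 1.17.1, pysam 0.24.0 and samtools 1.23.1 were used, and the distal sequences shown were widened so that the site is inside; the functions were tested on simulated data.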

Additional observations from a re-analysis of the deposited data

How the results depend on the processing

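No paired analysis was possible because only 1 library was analysed. The count of members with a promoter peak was 9, and 8 with a score above 200 or with the canonical transcript only, where BATF3 lost its peak. With a score above 200, 60 distal peaks and 4 members with a cluster remained, and the densities were 28.4, 27.8 and 36.1 per Mb in FOS-like, JUN-like and other members. With a score above 100 the FOS-like density was 42.7. Members with a distal TGACTCA peak numbered 6 to 9 across settings. Fewer peaks remain under both by construction. A window of 200 kb held 201 distal peaks, and one of 50 kb gave a FOS-like density of 99.1. With promoters of 2.5 kb to both sides the densities were 29.5 in JUN-like and 47.6 in other members. With at least 5 summits, 5 members had a cluster. The share of distal peaks with TGACTCA was 29.1% within 100 bp of the summit and 39.4% in the whole peak, as wider windows hold more sequence, and all distal peaks then had 29.3% and 40.4%. The share of protein-coding genes with a promoter peak was 57.5% and 52.05% with a score above 100 and 200, 65.73% and 70.3% with promoters of 1 and 2.5 kb to both sides, 52.2% with the canonical transcript and 65.72% by overlap of the interval. The promoter fold of FOSB was 6.18 with the canonical transcript only. Depth limits the weak peaks most, such as the JUNB peak with TGACTCA, which rested on a pileup of 9.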

Other observations

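The share of distal peaks with the AP-1 site was also read by fold, a split made after the folds had been seen. Of the 15 distal peaks with a fold of 40 or more, 9 had TGACTCA within 50 bp of the summit (60%; 32.3 to 83.7), compared with 26.2% of all 3815 distal peaks of such fold. Below a fold of 10 the shares were 16.4% near the family and 14.8% over all distal peaks. From 10 to 20 they were 12.5% and 19.3%, and from 20 to 40 they were 16% and 23.9%, so that over all distal peaks the share rose from each range to the next. The 9 peaks were in the windows of FOSB, FOSL2, JUN and ATF3. Those in the ATF3 window were nearer to the TSS of NENF, and the FOSL2 peak of fold 50.0 was nearer to that of PLB1. Leaving out each member in turn, the share ranged from 57.1% to 69.2%. The lower bound of its interval ranged from 26.2% without FOSL2 to 38.6% without BATF3. These values come from the same peaks, so they cannot check the choice of this range of folds. The intervals also take the peaks as independent. The peaks are few and neighbors of each other, and the difference was not tested.

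DUSP1, an early response gene, had no promoter peak although its window held 30 distal peaks in 5 clusters, 3 of them with TGACTCA.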
